A study of Mus musculus with 6 samples.

Results

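The interferon-inducible GTPases and the tryptophan-degrading enzyme gene Ido1 were examined in mouse colon with and without HDAC1 and HDAC2 in the intestinal epithelium. The 10 genes were Ido1, Iigp1, Ifi47, Igtp, Irgm1, Irgm2, Gbp2, Gbp3, Gbp6 and Gbp7, and every probe set whose only gene symbol was one of them was kept, which gave 14 of 45037 probe sets. This is 10 of 18193 named genes. Iigp1, Gbp2, Gbp6 and Gbp7 had 2 probe sets each and the others had 1. Total colon RNA of 3 control mice, labelled wild type, and 3 mice labelled HDAC1/2 KO was measured on Affymetrix Mouse Genome 430 2.0 arrays, and the labels give each array a mouse number. The mutant mice carried floxed Hdac1 and Hdac2 and a villin-Cre transgene, which is active in epithelial cells of the intestine, so other cells of the colon keep both genes. The mice were 4 months old by the study's account, untreated and on a normal diet. They are called HDAC1/2 deficient here.

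These genes belong to the best known targets of interferon gamma, a cytokine of T cells and NK cells. Its receptor activates JAK kinases and a STAT factor, which switch on genes through a GAS motif and, with interferon regulatory factors, through an ISRE motif. The immunity-related GTPases (Irgm1, Irgm2, Igtp, Iigp1, Ifi47) and the guanylate-binding proteins (Gbp2, Gbp3, Gbp6, Gbp7) are GTP-hydrolysing proteins that gather on vacuoles and membranes around intracellular bacteria and parasites. IDO1 opens the kynurenine pathway of tryptophan breakdown, and in the gut it is made by epithelial and myeloid cells during inflammation.

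Signals are on the log2 scale after RMA normalization by the authors, so a difference of 1 is a 2-fold change. Differences are given as deficient minus control and were tested with limma over all 45037 probe sets, with p adjusted by Benjamini-Hochberg and a threshold of 0.05. Of the deleted genes, Hdac1 was lower on every deficient array (10.60, 10.53 and 10.56 against 9.27, 9.21 and 9.32, limma adjusted p = 1.06e-06), whereas Hdac2 had a log2 fold change of 0.05 (limma adjusted p = 0.475). Over its 3 probe sets Hdac2 ran from -0.07 to 0.05, and none passed. These are RNA signals of total colon, and the paper reports loss of HDAC2 protein in isolated epithelial cells, with patchy staining left in tissue. All 12 epithelial markers measured, lay between the 93.4th and the 100th percentile of mean signal. Sex-linked RNA, looked at as a check of the samples, differed between the groups. Xist, an RNA of female cells that silences one X chromosome, was at 12.88, 12.85 and 12.81 in control and 12.01, 11.99 and 12.06 in deficient colon. The Y-linked Eif2s3y was at 3.84, 4.31 and 4.11 in control and 8.32, 8.49 and 8.22 in deficient colon. Each deficient array thus carried high signals of both, which RNA of 1 male or 1 female would not be expected to give. The labels number 1 mouse per array and the paper counts 3 mice per group, whereas the sample titles read mice, with a replicate number. Whether these arrays hold RNA of more than 1 mouse was not tested. Effects of sex and of genotype cannot be told apart. The p-values measure the spread between 3 arrays per group, which may be partly technical, and the number of arrays limits the precision. An exact permutation test of 3 against 3 arrays could not give a two-sided p below 0.1.

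All 10 genes were higher in HDAC1/2 deficient colon. Each of the 14 probe sets passed the test as higher, as did 18.8% of all probe sets (39.8% passed in either direction), and 13 of them were more than 2-fold higher, as were 1.56% of all. With every gene counted once, at its brightest probe set, 9 of the 10 members were more than 2-fold higher, against 2.25% of all genes. The members were chosen with earlier results of these data known, so these shares give scale and are no test of the members as a set. On every one of the 14 the lowest deficient array lay above the highest control array, a separation seen for 23.8% of all probe sets, and the gap between these arrays was between 0.74 and 4.23 on the log2 scale. The median log2 fold change was 2.02 over the 14 probe sets and -0.007 over all probe sets. Averaged over the 14 probe sets, the control arrays had log2 signals of 8.21, 8.13 and 8.21 and the deficient arrays of 10.36, 10.35 and 10.36. Control replicate 2 was the lowest control array on 10 of the 14 probe sets, whereas among the deficient arrays none was the lowest on more than 5. The replicates had an SD of 0.008 to 0.201 in control and 0.003 to 0.164 in deficient colon.

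**Figure D1:**
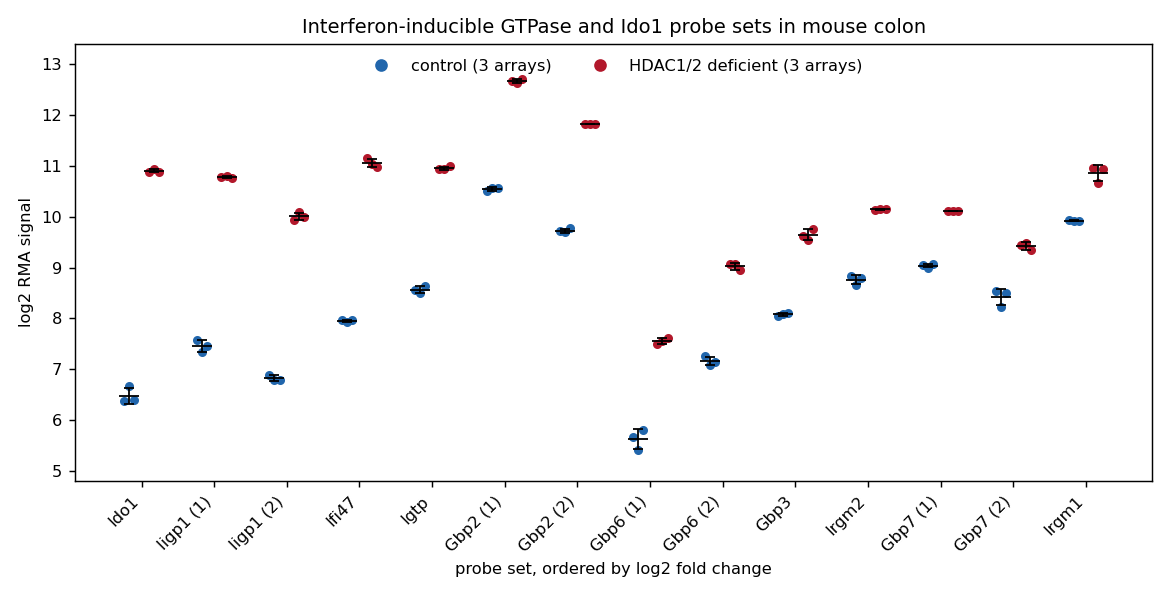
Log2 RMA signal (vertical axis) of the 14 probe sets (horizontal axis, ordered by log2 fold change) on 3 control arrays (blue) and 3 HDAC1/2 deficient arrays (red), where a number in parentheses tells apart probe sets of the same gene. Bars are the mean and SD over 3 arrays, and no probe set has overlapping groups, with the smallest gap (0.74) for Irgm1.

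Ido1 rose the most. Its log2 signals were 6.37, 6.66 and 6.39 in control and 10.89, 10.94 and 10.89 in deficient colon. The groups were far apart, and control replicate 2 lay above the other control arrays. The log2 fold change was 4.43 with a standard error of 0.079, or 21.6-fold (limma adjusted p = 4.00e-08), and it ranked 42nd among the rises of all 45037 probe sets. Ido2, which encodes a related enzyme and is the next protein-coding gene to Ido1 in RefSeq, had log2 signals of 4.90, 5.11 and 5.0 in control and 4.97, 4.94 and 4.96 in deficient colon, with a log2 fold change of -0.05 (limma adjusted p = 0.561). Its groups overlapped. Ido2 was among the dimmer probe sets, at percentile 18.3 of mean signal, where RMA values carry background. It was chosen after its value was seen.

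Iigp1 and Ifi47, which encode immunity-related GTPases that load onto the vacuoles of intracellular pathogens, followed Ido1. The brighter Iigp1 probe set had log2 signals of 7.58, 7.33 and 7.45 in control and 10.79, 10.81 and 10.77 in deficient colon. The second was at 6.89, 6.79 and 6.78 in control and 9.94, 10.09 and 9.99 in deficient colon. Both probe sets thus gave rises of like size, with log2 fold changes of 3.34 (standard error 0.064) and 3.19 (standard error 0.057), and their 95% intervals overlapped. Ifi47 was at 7.96, 7.92 and 7.97 in control and at 11.15, 11.04 and 10.98 in deficient colon. Its log2 fold change of 3.10 with a standard error of 0.054 (limma adjusted p = 3.39e-08) had an interval that overlapped that of the second Iigp1 probe set.

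Igtp, Irgm1 and Irgm2 encode the regulatory members of the same GTPase family, which sit on host membranes and restrain the pathogen-binding members there. They rose by smaller amounts, and unequally. Igtp was at 8.56, 8.50 and 8.63 in control and at 10.94, 10.93 and 10.99 in deficient colon, a log2 fold change of 2.39 with a standard error of 0.048 (limma adjusted p = 7.41e-08). Irgm2 had log2 signals of 8.83, 8.66 and 8.80 in control and 10.14, 10.15 and 10.15 in deficient colon, a log2 fold change of 1.38 (standard error 0.053). The 95% intervals of the log2 fold change, 2.28 to 2.51 for Igtp and 1.26 to 1.51 for Irgm2, did not overlap. Irgm1 showed the smallest rise of the 10 genes, from 9.93, 9.91 and 9.92 in control to 10.96, 10.67 and 10.94 in deficient colon. Deficient replicate 2 lay below the other deficient arrays, though well above every control array. Its log2 fold change was 0.93 with a standard error of 0.079 (limma adjusted p = 6.00e-05), or 1.91-fold, and 1.03 without that array.

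The guanylate-binding protein genes rose by log2 fold changes between 1.01 and 2.13 over 7 probe sets, against 0.93 to 3.34 over 6 probe sets of the immunity-related GTPases. Gbp2, whose product coats pathogen vacuoles and promotes their lysis, was at 9.72, 9.69 and 9.77 in control and at 11.83, 11.82 and 11.82 in deficient colon by one probe set. The other, of a type that can also bind RNA of related genes, was at 10.50, 10.57 and 10.56 and at 12.67, 12.63 and 12.72. The log2 fold changes were 2.10 (standard error 0.041) and 2.13 (standard error 0.044), and so nearly alike.

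Gbp6 had log2 signals of 7.25, 7.09 and 7.14 in control and 9.06, 9.06 and 8.95 in deficient colon by its brighter probe set, a log2 fold change of 1.86 (standard error 0.059). Its dimmer probe set was at 5.66, 5.41 and 5.80 in control, the widest spread of all 14, and at 7.49, 7.56 and 7.61 in deficient colon, with a log2 fold change of 1.93 (standard error 0.097). The groups were apart on both. Gbp3 was at 8.05, 8.08 and 8.11 in control and at 9.63, 9.55 and 9.76 in deficient colon, a log2 fold change of 1.57 (standard error 0.059).

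Gbp7 rose the least of this family. Its brighter probe set was at 9.05, 9.0 and 9.07 in control and at 10.12 on all 3 deficient arrays (a log2 fold change of 1.08 with a standard error of 0.041, limma adjusted p = 1.36e-06). The dimmer was at 8.53, 8.23 and 8.49 in control, with replicate 2 again the lowest, and at 9.44, 9.49 and 9.34 in deficient colon (log2 fold change 1.01, standard error 0.085). The rise of the dimmer probe set lay at the edge of 2-fold, and was 0.91 without control replicate 2.

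Ordered by the rise, 5 of the 13 neighbouring pairs of probe sets had 95% intervals that did not overlap. These gaps lay between Ido1 and Iigp1, Ifi47 and Igtp, Igtp and Gbp2, Gbp6 and Gbp3, and Irgm2 and Gbp7. Iigp1 was not apart from Ifi47, nor Gbp2 from Gbp6, Gbp3 from Irgm2, or Gbp7 from Irgm1. For the 4 genes with 2 probe sets the intervals overlapped each time.

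**Figure D2:**
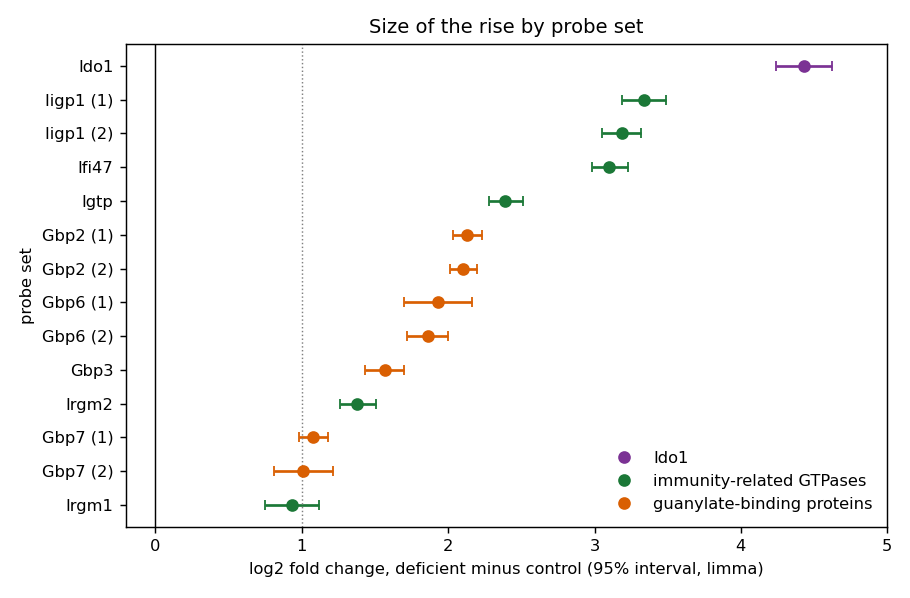
Log2 fold change (deficient minus control, horizontal axis) of the 14 probe sets (vertical axis) with its 95% interval from limma. Ido1 (4.43) stands above all others, the immunity-related GTPases (green) span 0.93 to 3.34, the guanylate-binding proteins (orange) span 1.01 to 2.13, and the dotted line marks a 2-fold rise.

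**Figure D3:**
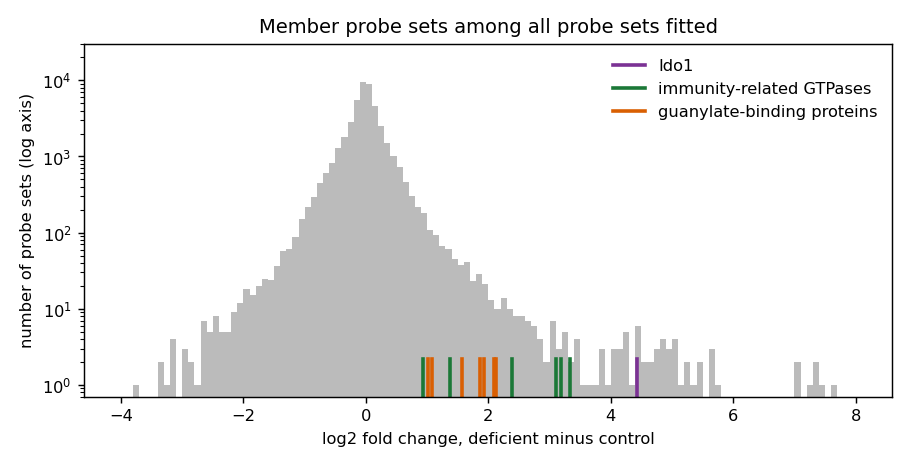
Number of probe sets (vertical, log axis) by log2 fold change (deficient minus control, horizontal axis) over all 45037 probe sets, in grey, with the 14 members as coloured marks. The members lie from 0.93 to 4.43, to the right of most probe sets, whose median was -0.007.

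The DNA before the start of the genes was searched for the motifs of the interferon response. The array values did not enter this search, but the members are known interferon targets, so such motifs were likely in advance. RefSeq windows (GRCm38.p6) were at hand for 7 of the 10 members, without Ido1, Iigp1 and Gbp6. In the 250 bases before the start, the ISRE letters, GAAA then any 2 bases then GAAA, were searched on both strands (TTTC, any 2 bases and TTTC on the other) and the GAS letters TTCNNNGAA, which read the same on both strands. The ISRE letters were present for 6 of the 7 members with a window, namely Igtp, Irgm1, Irgm2, Gbp2, Gbp3 and Gbp7, against 2.98% of 32851 windows of this length and 3.46% of 27025 genes. Ifi47 had neither motif in this window. The GAS letters stood in the windows of Igtp, Irgm2 and Gbp7, and in 7.02% of all windows and 8.13% of all genes. Both motifs were found together in 3 of the 7, against 0.332% of all windows and 0.459% of all genes. The 7 members had 8 windows between them, and every match lay in the first window of its gene. These are matches of letters, and binding was not measured.

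The 120 bases before the start of the 6 members with an ISRE match are given 5′ to 3′ on the strand of the gene, with ISRE and GAS matches in capitals, to show where the motifs lie and how alike they are.
Igtp (chr11:58199436-58199555, plus strand): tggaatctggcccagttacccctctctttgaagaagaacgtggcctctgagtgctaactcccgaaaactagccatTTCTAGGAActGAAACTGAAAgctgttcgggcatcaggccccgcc
Irgm2 (chr11:58214857-58214976, plus strand): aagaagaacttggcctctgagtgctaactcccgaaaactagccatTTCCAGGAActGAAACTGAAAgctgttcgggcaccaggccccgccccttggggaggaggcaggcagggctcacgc
Irgm1 (chr11:48871421-48871540, minus strand): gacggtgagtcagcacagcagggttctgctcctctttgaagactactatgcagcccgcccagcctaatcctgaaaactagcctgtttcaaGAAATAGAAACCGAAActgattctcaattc
Gbp2 (chr3:142620543-142620662, plus strand): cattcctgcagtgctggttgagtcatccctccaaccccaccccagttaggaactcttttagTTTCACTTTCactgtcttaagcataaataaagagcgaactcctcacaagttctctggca
Gbp3 (chr3:142559924-142560043, plus strand): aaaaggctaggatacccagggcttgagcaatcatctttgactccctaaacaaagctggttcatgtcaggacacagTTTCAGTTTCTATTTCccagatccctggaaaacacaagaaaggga
Gbp7 (chr3:142530216-142530335, plus strand): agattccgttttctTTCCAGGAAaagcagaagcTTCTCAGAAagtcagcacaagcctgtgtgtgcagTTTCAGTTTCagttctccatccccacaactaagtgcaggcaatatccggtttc

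In Igtp and Irgm2, which are next to each other in RefSeq, the GAS match is followed at the same distance by the ISRE match. With the Irgm2 sequence moved by 30 bases, 87 of the 90 bases that the printed stretches share were identical (96.7%). Over the whole searched window at the same shift, 134 of 220 were (60.9%). No gaps were allowed, so whether the likeness goes on further upstream was not tested. Other pairs of members had 28.8% to 38.8% identical bases at their best shift. The members Irgm1 and Gbp3 each carried 2 overlapping ISRE matches, and Gbp7 had 2 GAS matches upstream of its ISRE match. Igtp and Irgm2 had log2 fold changes of 2.39 and 1.38, and Gbp3, with 2 ISRE matches, rose less than Gbp2, with 1.

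The ligand was dim and the receptors were lower. Ifng, the gene of interferon gamma, was at 4.16, 4.54 and 4.56 in control and at 5.45, 5.27 and 5.0 in deficient colon, a rise of 0.82 on the log2 scale (standard error 0.141, limma adjusted p = 0.00248). All deficient arrays were above the control arrays, and the probe set lay at percentile 16.3 of mean signal. Ifngr1, which encodes the ligand-binding receptor chain, was at 11.86, 11.87 and 11.88 in control and 11.43, 11.42 and 11.44 in deficient colon (log2 fold change -0.44, limma adjusted p = 6.65e-05). The second chain gene, Ifngr2, had a log2 fold change of -0.38 (limma adjusted p = 0.00590) and was lower by both of its probe sets. Of 12 genes of interferon gamma, its inducers and the interferon receptors, 4 were higher, 3 lower and 5 did not pass, where 21.9% of all 18193 named genes were higher and 28.4% lower. The list's median log2 fold change was 0.01. Its largest changes beside Ifng and Ifngr1 were in Il18r1 (0.47), a receptor chain for the interferon gamma inducer IL-18, and Ifnar2 (0.42), a chain of the type I interferon receptor. Il12b, an inducer gene chosen after its values were seen, did not pass by its brightest probe set (0.02) but was higher by the other (0.56). With a gene's probe sets averaged, 5 of the 12 genes were higher.

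Among 19 interferon signal transducers, transcription factors and inhibitors, 11 were higher, 2 lower and 6 did not pass, with a median log2 fold change of 0.28. The shares over all named genes were 21.9% higher and 28.4% lower. Irf1, an early interferon target that acts on GTPase promoters, was bright in both groups, at 11.43, 11.42 and 11.46 in control and at 11.69, 11.80 and 11.64 in deficient colon. Its log2 fold change was 0.27 (limma adjusted p = 0.00384). Irf2, which encodes a factor that competes with IRF1 at shared sites, fell by 0.87 on the log2 scale (limma adjusted p = 2.23e-05). Its only probe set is of a type that can also bind RNA of related genes. The other lower gene, Ptpn2, was lower by 2 of its 4 probe sets and higher by 2, with log2 fold changes from -0.41 to 0.35. Ptpn2 was chosen after its values were seen. Socs3 (3.49), a feedback inhibitor of cytokine receptors, Nlrc5 (1.98), a transactivator of MHC class I genes, and Usp18 (1.32), an inhibitor of the type I interferon receptor, rose more than 2-fold. Jak2, the kinase gene of the receptor complex, was at 11.04 in both groups (log2 fold change 0.00) and was chosen after its value was seen.

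Ubiquitin-like conjugation genes bring GTPases to pathogen vacuoles through their products. The list drawn up for them also holds autophagy genes that are not part of the conjugation system, namely Becn1, Sqstm1 and Tax1bp1. Of its 14 genes measured, 9 were lower, as were 28.4% of all genes, 0 were higher and 5 did not pass. Their log2 fold changes ran from -0.99 to 0.06 with a median of -0.18, where the median absolute log2 fold change of all genes was 0.17. By limma, 0 of the 14 had an unadjusted p under 0.05 with a positive log2 fold change, and the other tests run called 0 of them higher as well. Atg10, which encodes an E2-like enzyme that joins ATG12 to ATG5, was at 8.25, 8.27 and 8.27 in control and at 7.31, 7.26 and 7.24 in deficient colon (log2 fold change -0.99 with a standard error of 0.041, limma adjusted p = 1.94e-06). Smaller falls were those of Atg7 (-0.40), the E1-like enzyme gene, Atg12 (-0.33) and Gabarapl1 (-0.30), the latter encoding a membrane-anchored ubiquitin-like protein. For Atg12 1 of 3 probe sets passed, and for Atg7 2 of 4, all as lower. Tax1bp1 was lower by 1 of 4 probe sets, Atg3 by 1 of 2, and Gabarapl2 by 1 of 2, with 0.15 in the other.

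Genes of tryptophan use did not move with Ido1 as a group. Of 22 measured, 6 were higher, 6 lower and 10 did not pass, with a median log2 fold change of -0.05. Among all named genes 21.9% were higher and 28.4% lower. The list also holds genes outside the kynurenine pathway, such as Slc7a5, Wars and Ahr, so its counts are not those of that pathway alone. Slc7a5, which encodes the light chain of a tryptophan transporter, rose from 8.29, 8.25 and 8.16 to 9.25, 9.28 and 9.24 (log2 fold change 1.03, limma adjusted p = 3.23e-06). Wars, the tryptophanyl-tRNA synthetase gene and itself an interferon gamma target, rose by 0.92 by its brightest probe set and was higher by all 4 of its probe sets. Nampt (0.64), which encodes an enzyme of NAD salvage, was higher by 2 of 3 probe sets. Afmid, the gene of the formamidase that takes up the product of IDO1, fell by 0.60 on the log2 scale by its brightest probe set (limma adjusted p = 2.11e-04). It was lower by 2 of 4 probe sets, which ran from -0.60 to -0.05. Kmo (0.53) and Kynu (0.57), the next enzyme genes, rose. Kynu was higher by both of its probe sets, but even the brightest was dim, at percentile 24.9 of mean signal (limma adjusted p = 0.0125). Ahr, the gene of a receptor that kynurenine activates, had a log2 fold change of -0.51 in its brightest probe set and of 0.22, not past the test, in the other. Kmo, Kynu and Ahr were chosen after their values were seen.

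**Figure D4:**
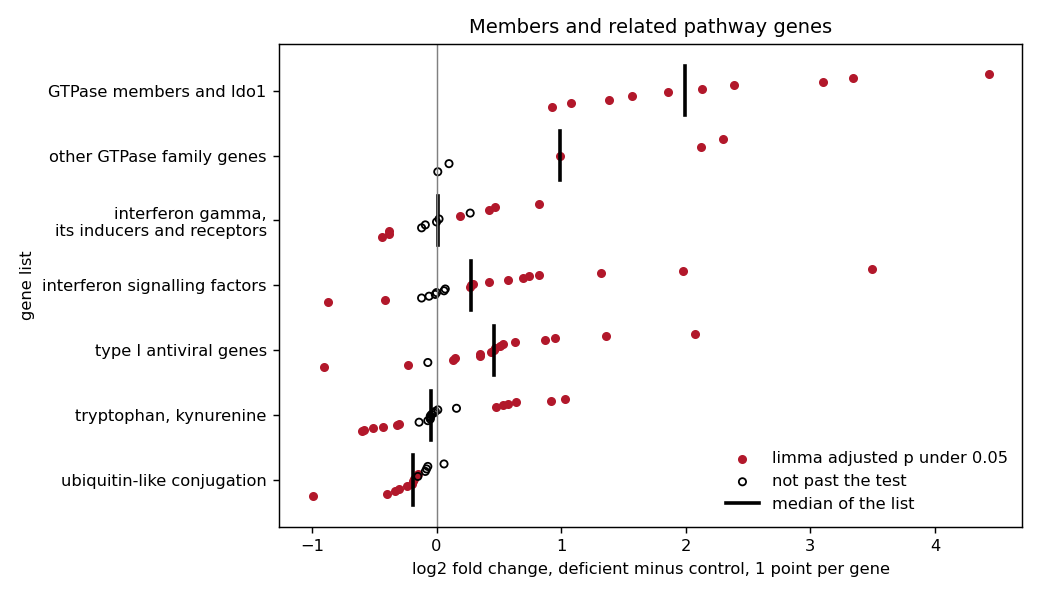
Log2 fold change (deficient minus control, horizontal axis) of single genes in the members and 6 related gene lists (vertical axis), with the brightest probe set standing for each gene. Filled red points are genes past the limma threshold of 0.05 and open points are the rest. Black bars are medians, which run from 2.00 for the 10 members to -0.18 for the ubiquitin-like conjugation list.

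Other GTPase genes of these families were measured for 5 symbols. Gm4951, an immunity-related GTPase gene, had log2 signals of 5.14, 5.19 and 5.23 in control and 7.43, 7.40 and 7.60 in deficient colon (log2 fold change 2.30, limma adjusted p = 2.71e-07). Gbp8 rose by 2.12 and Gbp2b, which lies between Gbp3 and Gbp2, by 0.99 on the log2 scale. The groups did not overlap for any of these 3. Irgc1 (0.10), a relative that lacks the interferon response of the family, did not pass, nor did the fifth gene. Gbp7, Gbp3, Gbp2b and Gbp2 follow one another in RefSeq, and their log2 fold changes by the brightest probe set were 1.08, 1.57, 0.99 and 2.13.

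Antiviral genes that mainly type I interferon induces were mostly higher. Of 17 measured, 14 were higher, 2 lower and 1 did not pass, and 2 were more than 2-fold higher, namely Ifit2 (2.07), which encodes an RNA-binding inhibitor of translation, and Zbp1 (1.36), a sensor of Z-form nucleic acid. Among all named genes 21.9% were higher, 28.4% lower and 2.25% more than 2-fold higher. The median log2 fold change of the antiviral genes was 0.46, beside 2.00 for the 10 members. Ifit3 (0.95) rose, and Ifih1, a sensor gene of double-stranded RNA, fell by 0.90 on the log2 scale (limma adjusted p = 3.21e-06).

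Markers of immune cells rose with the members, and their part in the result was not tested. In bulk colon RNA, more cells of a type and more RNA per cell cannot be told apart. Beside the counts of all marker lists, 21.9% of all named genes were higher and 28.4% lower. Of 10 macrophage markers 8 were higher and 0 lower, with a median log2 fold change of 0.86, and their summed log2 level was 13.45 to 13.49 on control and 14.12 to 14.14 on deficient arrays. By limma, 0 of these 10 had a log2 fold change below 0. C1qa (1.33) and C1qb (1.19), complement genes of tissue macrophages, Csf1r (1.12), the receptor gene of their growth factor, and Mrc1 (0.99) led the list. Of 11 T and NK cell markers 9 were higher, with a median of 0.76, and their summed level was 10.27 to 10.39 on control and 11.07 to 11.18 on deficient arrays. Gzma (2.55), Gzmb (1.24) and Nkg7 (1.00), genes of cytotoxic granules, and Cd3g (1.62), of the T cell receptor complex, were the largest.

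Of 6 B cell markers 5 were higher, Cd79b by 1.65, Ms4a1 by 1.48, Cr2 by 0.99 and Cd79a by 0.78, and the summed log2 level moved from 10.04 to 10.07 up to 11.27 to 11.30. Of 6 dendritic cell markers 3 were higher by the brightest probe set, with Itgax (0.91) ahead of Cd209a (0.28), Zbtb46 (0.28) and Batf3 (0.13, not past the test). Over its 4 probe sets, of which 3 were higher, Zbtb46 ran from -0.08 to 0.91. The summed levels of the list were 9.25 to 9.38 on control and 9.67 to 9.75 on deficient arrays. Among 7 endothelial markers 4 were lower, Cdh5 (-0.36), Tie1 (-0.32), Pecam1 (-0.28) and Tek (-0.27), with summed levels of 10.78 to 10.80 on control and 10.65 to 10.77 on deficient arrays. Epithelial markers went both ways, as did all named genes, with 21.9% higher and 28.4% lower. Of 12 measured, 6 were higher, led by Krt20 (0.67), Car1 (0.57), Cdx2 (0.56) and Vil1 (0.35), and 2 were lower. Their summed level was 17.38 to 17.39 on control and 17.52 to 17.53 on deficient arrays. No marker is at 0, since RMA values have no zero. Against these lists, whose medians lay between -0.27 and 0.89, the median of the 10 members was 2.00. Lists and members were chosen with earlier results of these data known, so this comparison is no test.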

How the data were processed

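Total colon RNA of 3 control and 3 HDAC1/2 deficient mice was measured on Affymetrix GeneChip Mouse Genome 430 2.0 arrays. Each deposited value is a log2 signal, which the authors obtained by RMA (background correction and normalization) in Flexarray, per the paper and the submitters' processing notes. The labels name colon epithelium as source, and the extraction protocol total colon. RMA can compress changes of dim probe sets. Of 45101 probe sets, 64 controls were left out, and the remaining 45037 entered one limma fit without covariates (lmFit, eBayes and Benjamini-Hochberg, limma 3.58.1, R 4.3.3). The platform annotation gives 34945 probe sets 1 symbol, 932 several and 9160 none, and probe sets with several named no gene. Outside the members, the probe set of highest mean stands for each of 18193 genes. Groups come from the sample titles. No scan date or batch was known, and no array pair was identical.

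The members and lists were chosen with earlier results of these data known. Named were all members, Hdac1 and Hdac2, Ifng, its receptor genes and Irf1, the 4 largest absolute changes of each list, and the 5 genes nearest to Ido1 and to the mean of the 9 GTPase members, others being marked as chosen later. The fit was tested on simulated data. Alternatives were the methods' t-test, unadjusted and adjusted, quantile normalization again, median centring, a filter at the 40th percentile of mean signal, trended and robust eBayes, no shared-sequence probe sets (_s_at, _x_at), a block for the replicate number, averaging of a gene's probe sets, and leaving out each array. Some genes are not reported here. Figures used matplotlib 3.10.9.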

Additional observations from a re-analysis of the deposited data

How the results depend on the processing

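All 14 probe sets of the members stayed higher and past the threshold under every alternative run on them, with 13 of 13 when shared-sequence probe sets were left out. The number more than 2-fold higher was 13, and 12 with median centring, without shared-sequence probe sets, and without control replicate 2 or deficient replicate 1. Over these alternatives the log2 fold change of Ido1 ran from 4.38 to 4.52, and that of Irgm1 from 0.88 to 1.03 with an adjusted p of at most 0.0399. With the replicate block 14 were called and 13 were more than 2-fold higher, and no count of a list moved by over 1.5 times. Deviations from the group means correlated at 0.10, 0.06 and -0.03 between same-numbered arrays, so the numbers were not taken as pairs.

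Of the list counts, 8 moved by over 1.5 times and 352 did not. Lower antiviral genes were 1 in place of 2 by the methods' t-test with adjustment and by the mean of all probe sets. Lower signalling genes were 1 in place of 2 by that mean and without shared-sequence probe sets. The latter setting took out the only probe set of Irf2, so Irf2 was not tested there. Above the 40th percentile, 2 in place of 4 interferon gamma ligand and receptor genes were higher, as fewer genes were tested and Ifng and Il18r1 were not among them. By the adjusted t-test 1 dendritic cell marker was higher in place of 3, and 1 endothelial and 1 epithelial marker lower in place of 4 and 2. The causes of the other changes were not tested. The number of arrays limits all p-values, and Ifng was measured near the lower end of the signal range.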

Other observations

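The genes whose log2 profile over the 6 arrays was nearest to that of Ido1, by Euclidean distance after each profile's own mean was taken off, were Eif2s3y (distance 0.33), Gtsf1 (0.34), Lgals2 (0.34), Rnase1 (0.35) and Fabp6 (0.35), with log2 fold changes between 4.24 and 4.54. They include a Y-linked translation factor gene, a galectin gene and the gene of the ileal bile acid binding protein. Those nearest to the mean of the 9 GTPase members, whose mean log2 fold change was 1.98, were Reep6 (distance 0.04), Phlda2 (0.07), Ak4 (0.08), Clps (0.11) and Psmb8 (0.12). Of these Psmb8 encodes a subunit of the immunoproteasome and Clps the pancreatic colipase. The distance takes in the size of the difference between the groups, so no likeness beyond that is shown.

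The ISRE letters were present in the windows of 5 of 12 antiviral genes with a window and of 3 of 14 signalling genes. They were in those of 0 of 17 genes of tryptophan use and 0 of 10 genes of the ubiquitin-like conjugation list. Over all 27025 genes with a window the share was 3.46%. The 3 signalling genes were Socs1, Stat2 and Irf2, which were chosen after their values were seen and had log2 fold changes of 0.57, 0.29 and -0.87. Kyat3, a kynurenine transaminase gene that follows Gbp2 in RefSeq, had a log2 fold change of -0.30, where Gbp2 rose by 2.13. It too was chosen after its value was seen.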
